A study of Mus musculus with 8 samples.

Results

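The proximal block of mouse chromosome 7 is a stretch of 41.7 Mb near the centromere in which chromatin regions were, as a body, more accessible in leukemic than in non-leukemic progenitors. Its members are the 2040 regions that lie wholly within chr7:4705151-46379343 (GRCm38), out of 9088 on chromosome 7 and 160978 in all. They make up 22.4% of the regions of the chromosome and 1.27% of those of the genome. The edges of the block were chosen from the fold changes of these same regions, so its overall fold change is a description and carries no test.

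The measurements come from ATAC-seq, which uses a transposase to tag open chromatin, on cKit+ Lymph- Ery- bone marrow cells, a fraction rich in hematopoietic stem and progenitor cells. The leukemic libraries numbered 4, all labelled acute myeloid leukemia (AML), with 2 of genotype URE-delta/+;Tet2+/- and 2 of genotype URE-delta/+;Tet2-/-. The normal libraries numbered 4, with 1 each of genotype URE-delta/+;Tet2+/+, URE+/+;Tet2+/-, URE+/+;Tet2-/- and URE+/+;Tet2+/+ (wild type). The URE is a distal enhancer of Spi1, the gene of the myeloid transcription factor PU.1, and Tet2 encodes an enzyme that oxidises methylated cytosine in DNA. No normal library carried both lesions, so an effect of leukemia cannot be told apart from that of the combined genotype. The ages of the mice are not given in the labels. Lanes 6 and 7 each held 2 AML libraries and 1 normal library, and lane 8 held 2 normal libraries.

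All fold changes are the authors' own, named for low PU.1 and given as log2 of leukemic over non-leukemic accessibility, 1 value per region. The labels do not say which libraries entered either side. No values per library were used, so depth is unknown and the spread between mice cannot be given for any value. In what follows, a region rose or fell where the authors' adjusted p was under 0.001, and any other region is given by its value. Regions carry the name of the nearest gene, which is not shown to be the gene they regulate. Across the genome, the 7 progenitor marker genes examined, among them Kit and Cd34, all had a region at their promoter, with a log2 average abundance of -0.11 to 3.26. Regions were found at the promoters of 2 of 4 T-cell, 2 of 3 B-cell and 3 of 4 erythroid marker genes, with an abundance of at most -2.08, -1.42 and -0.36. The Cd34 promoter region fell, with -2.48 in the authors' deposited table (adjusted p = 1.24e-04). Those of Gfi1b and the erythroid Hbb-bt did not pass the threshold, and the authors' deposited table gives them as -1.48 and -2.22.

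The proximal part of mouse chromosome 7 is rich in genes, many in tandem families. It holds clusters of Krüppel-type zinc finger genes, whose products bind DNA and often recruit repressors. It also holds vomeronasal receptor genes, which are used in pheromone sensing, and the kallikrein proteases, cytochrome P450 enzymes of the Cyp2 family, and Siglec genes. Siglecs are sialic acid receptors of leukocytes, and several of them carry inhibitory signals in myeloid cells and B cells. The block further contains Cebpa, the gene of a transcription factor required for granulocyte formation, and the imprinted domain of Peg3 and Usp29, genes that are active from the copy of the father.

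Promoters of the block whose regions rose or fell are shown first, as the sequences at the called ends of the range. The windows are RefSeq promoter sequences of GRCm38.p6, each 300 bases, mostly upstream of an annotated start, written 5′ to 3′ along the gene, with every CG dinucleotide in capitals. Regions over the following promoters rose, and they held 13, 8, 9 and 18 CG dinucleotides, in the order given.
Peg3 (chr7:6730370-6730669, minus strand): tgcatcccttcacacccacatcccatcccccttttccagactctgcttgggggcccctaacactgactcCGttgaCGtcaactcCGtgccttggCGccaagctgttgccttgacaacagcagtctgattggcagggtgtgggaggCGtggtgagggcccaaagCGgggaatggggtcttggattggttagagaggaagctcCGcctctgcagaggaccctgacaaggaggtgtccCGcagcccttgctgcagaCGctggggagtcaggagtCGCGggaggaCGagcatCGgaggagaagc
Dmkn (chr7:30776155-30776454, plus strand): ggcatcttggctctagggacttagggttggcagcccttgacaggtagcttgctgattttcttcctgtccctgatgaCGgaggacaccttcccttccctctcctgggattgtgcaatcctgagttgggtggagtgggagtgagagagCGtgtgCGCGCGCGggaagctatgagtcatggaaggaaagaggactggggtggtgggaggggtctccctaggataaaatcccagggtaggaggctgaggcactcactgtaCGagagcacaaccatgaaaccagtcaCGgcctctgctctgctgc
Catsperg1 (chr7:29210876-29211175, minus strand): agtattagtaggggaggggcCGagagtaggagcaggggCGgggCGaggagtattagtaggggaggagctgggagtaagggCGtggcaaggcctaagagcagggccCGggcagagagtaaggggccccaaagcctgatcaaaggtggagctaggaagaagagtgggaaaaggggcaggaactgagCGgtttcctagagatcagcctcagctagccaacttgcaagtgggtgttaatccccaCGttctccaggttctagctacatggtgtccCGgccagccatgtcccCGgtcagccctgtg
Myh14 (chr7:44670794-44671093, minus strand): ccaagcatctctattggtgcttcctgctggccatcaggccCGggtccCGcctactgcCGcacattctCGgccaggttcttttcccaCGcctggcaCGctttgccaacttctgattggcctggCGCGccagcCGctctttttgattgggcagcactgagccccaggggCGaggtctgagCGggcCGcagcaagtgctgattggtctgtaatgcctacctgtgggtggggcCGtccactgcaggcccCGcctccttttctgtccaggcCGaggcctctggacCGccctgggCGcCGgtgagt

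Regions over the promoters of Siglecg and Siglece fell, and each of the windows below holds 1 CG dinucleotide.
Siglecg (chr7:43407989-43408288, plus strand): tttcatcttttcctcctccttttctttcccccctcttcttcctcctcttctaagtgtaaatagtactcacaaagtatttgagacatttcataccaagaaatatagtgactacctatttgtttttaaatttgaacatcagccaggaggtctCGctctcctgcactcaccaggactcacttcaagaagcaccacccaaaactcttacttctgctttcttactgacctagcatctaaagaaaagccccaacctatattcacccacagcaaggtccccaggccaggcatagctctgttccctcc
Siglece (chr7:43660112-43660411, minus strand): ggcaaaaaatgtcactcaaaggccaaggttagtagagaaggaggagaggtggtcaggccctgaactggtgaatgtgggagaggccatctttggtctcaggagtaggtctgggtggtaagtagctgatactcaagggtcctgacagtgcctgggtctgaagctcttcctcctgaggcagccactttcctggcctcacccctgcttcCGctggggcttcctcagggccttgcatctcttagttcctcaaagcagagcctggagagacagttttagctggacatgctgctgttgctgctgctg

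A last window is shown for a set of letters that recurs at the same place in 72 windows of the block. It belongs to Vmn1r90, a vomeronasal receptor gene with no region at its promoter. Its capitals mark GAGGAAGT, the core letters that PU.1 prefers.
Vmn1r90 (chr7:14562122-14562421, minus strand): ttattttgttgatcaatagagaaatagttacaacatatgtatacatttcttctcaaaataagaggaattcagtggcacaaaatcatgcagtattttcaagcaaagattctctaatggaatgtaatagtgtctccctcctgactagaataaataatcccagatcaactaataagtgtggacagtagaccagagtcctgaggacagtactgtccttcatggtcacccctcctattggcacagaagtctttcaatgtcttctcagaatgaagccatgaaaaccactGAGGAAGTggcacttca

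The excess in accessibility was spread over most of the block. The median log2 fold change was 0.52 over the 2040 block regions (quartiles -0.10 and 0.98), 0.12 over the 7048 other regions of chromosome 7 (quartiles -0.57 and 0.67) and 0.00 over the other chromosomes. Of the block regions, 1485 (72.8%) had a value above 0, against 54.9% on the rest of the chromosome. In all, 54 block regions rose (2.65%) and 17 fell (0.833%). On the rest of chromosome 7, 84 rose (1.19%) and 77 fell (1.09%), and over all regions 2002 rose (1.24%) and 1961 fell (1.22%). The rule used this contrast, so nothing is read from these shares. At an adjusted p under 0.05, 446 block regions (21.9%) would count as risen and 103 (5.05%) as fallen, against 9.09% and 7.56% on the rest of chromosome 7 and 7.98% and 9.21% of all regions. The regions that rose had log2 fold changes from 1.04 to 4.14, and those that fell from -3.29 to -1.32.

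The first and last members were not themselves high, though medians over 50 regions were higher inside the edges than outside. In the authors' deposited table the outermost member on the centromeric side, near Brsk1, had a log2 fold change of 0.32, and the nearest region outside it, near Hspbp1, had 0.43. On the other side, the last member, at Myod1, had -0.53 in the authors' deposited table, and the next region outside, at Kcnc1, had -1.04. The edges were placed from these fold changes, so a step across them was fixed by the choice. Over 50 regions the medians were 0.82 inside and 0.33 outside the centromeric edge, and 0.82 inside and 0.13 outside the far edge.

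Along the block, the 1 Mb bins that held at least 20 regions numbered 26, and 25 of them had a median above 0. The 26 include the bins at both edges, which were taken whole and also hold regions outside the block. Members made up 44 of 143 regions at 4 to 5 Mb (median 0.40) and 38 of 134 at 46 to 47 Mb (median 0.33). The medians of the 26 bins ranged from -0.30, between 43 and 44 Mb, to 0.85. On the rest of chromosome 7, 55 of 81 such bins had a median above 0, with a range from -0.51 to 0.68. A median above 0.3 was found in 22 of the 26 block bins and in 17 of the 81 others. The bins outside the block thus overlapped with those inside it.

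**Figure D1:**
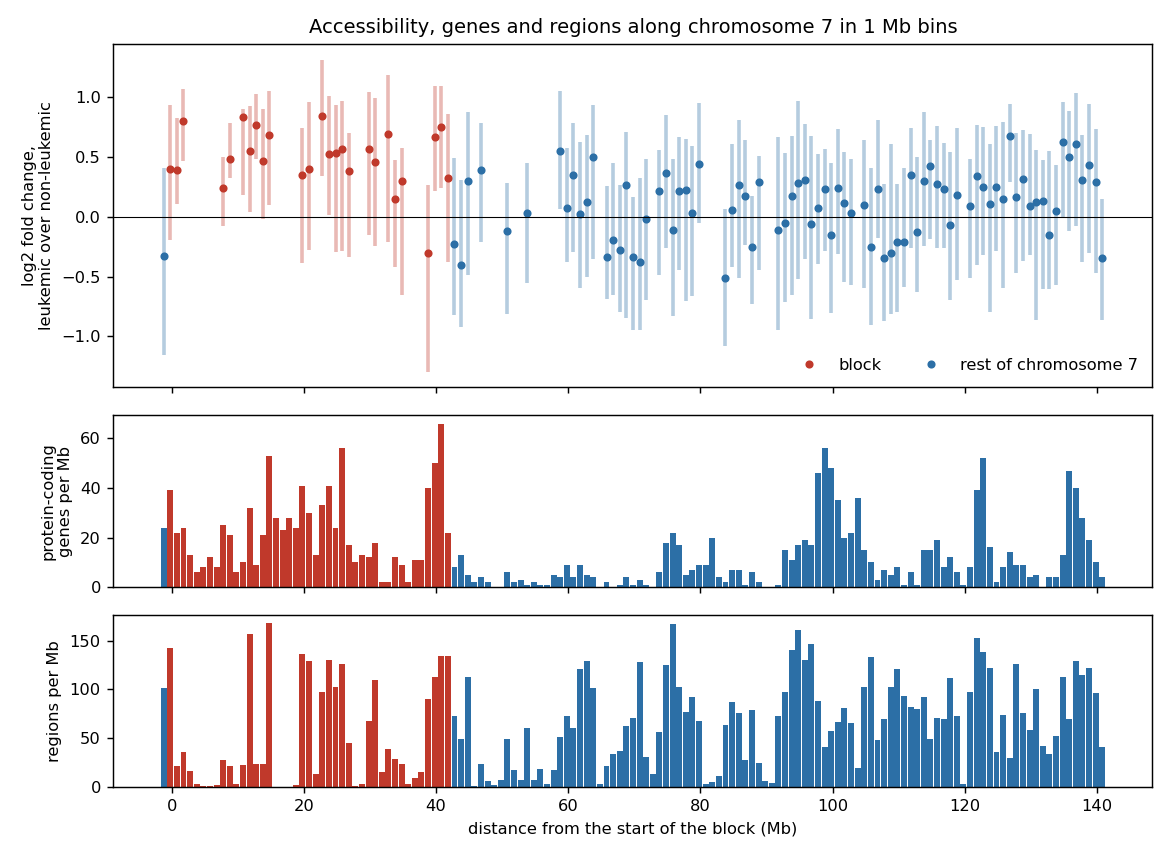
Log2 fold change of leukemic over non-leukemic accessibility (point, median; bar, quartiles; bins with at least 20 regions), protein-coding genes per Mb and regions per Mb in 1 Mb bins, by distance in Mb from the start of the block, for the block and the rest of chromosome 7. Block bins with at least 20 regions had medians from -0.30 to 0.85, and the other bins from -0.51 to 0.68. The block bins at both edges also hold regions outside the block.

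The block was dense in genes and comparatively poor in regions. It held 912 protein-coding genes, or 21.9 per Mb, against 11.1 per Mb on the rest of chromosome 7 and 8.08 per Mb on the other chromosomes. It held 49.0 regions per Mb, against 70.1 on the rest of chromosome 7 and 62.7 elsewhere. Thus there were 2.24 regions per coding gene in the block, 6.30 on the rest of the chromosome and 7.75 on the others. Vomeronasal receptor genes made up part of this gap. Without them the block had 18.0 coding genes per Mb and 2.72 regions per coding gene, and the rest of the chromosome 10.9 and 6.40. Block regions were more abundant, with a median log2 average abundance of -0.15 against -1.06 on the rest of the chromosome, and of similar width, with medians of 340 and 329 bp.

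Most block regions, 1324 or 64.9%, lay in 1 Mb bins with 30 or more coding genes, against 12.2% of the regions on the rest of chromosome 7. The fold changes of the block were alike across classes of gene density. Their median was 0.53 in bins with 0 to 9 coding genes, 0.47 with 10 to 19, 0.52 with 20 to 29, and 0.52 with 30 or more. On the rest of chromosome 7 the medians in the same order were 0.05, 0.18, 0.06 and 0.31, and on the other chromosomes -0.09, 0.05, 0.15 and 0.32. The densest class thus had the highest median outside the block, and at 0.31 and 0.32 it stood closest to the value of the block. With all annotated genes counted in place of coding genes, the least dense class of the block held only 3 regions, with a median of -0.47. Across the bins with at least 20 regions, Spearman's correlation of gene number with median fold change was 0.08 over 26 block bins and 0.30 over 81 others. That of gene number with the number of regions was 0.70 and 0.50. These are descriptions of neighbouring bins of 1 table, and the 26 include the edge bins, which also hold regions outside the block.

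Block regions lay near gene ends more often than others. A centre within 1 kb of either end of a gene was found for 649 block regions (31.8%), against 16.2% on the rest of chromosome 7. A further 960 (47.1%) lay inside genes and 431 (21.1%) between genes. In bins with 30 or more coding genes, gene ends held 458 of 1324 regions in the block. In such bins they held 268 of 861 on the rest of chromosome 7 and 3188 of 9950 on other chromosomes. A high share at gene ends is thus not particular to the block. The block medians were 0.47 at gene ends, 0.56 inside genes and 0.49 between genes. On the rest of chromosome 7 they were 0.26, 0.11 and 0.04, so the distance between block and rest was smallest at gene ends. Of the 54 regions that rose, 12 lay at gene ends, 32 inside genes and 10 between genes. Of the 17 that fell, 1 lay at a gene end, 9 inside genes and 7 between genes.

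Values are also given within 5 classes of abundance with equal numbers of regions genome-wide. From the least to the most abundant class, the block medians were 0.38, 0.41, 0.61, 0.83 and 0.43, and those on the rest of chromosome 7 were 0.19, 0.13, 0.10, 0.14 and 0.05. The most abundant class held 39.2% of the block regions, 33 of the 54 that rose and 16 of the 17 that fell. Called regions also gathered in this class elsewhere. It held 42 of 84 that rose and 69 of 77 that fell on the rest of chromosome 7. On the other chromosomes it held 757 of 1864 and 1609 of 1867, so this is not particular to the block. In all 15 combinations of location and abundance class the block median was the higher one, by 0.08 to 0.87. The same held in all 11 combinations of location and gene density class with at least 20 regions on both sides, by 0.12 to 0.64. As the block was delimited by these fold changes, higher medians within classes follow in large part from the choice, and nothing is read from them.

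**Figure D2:**
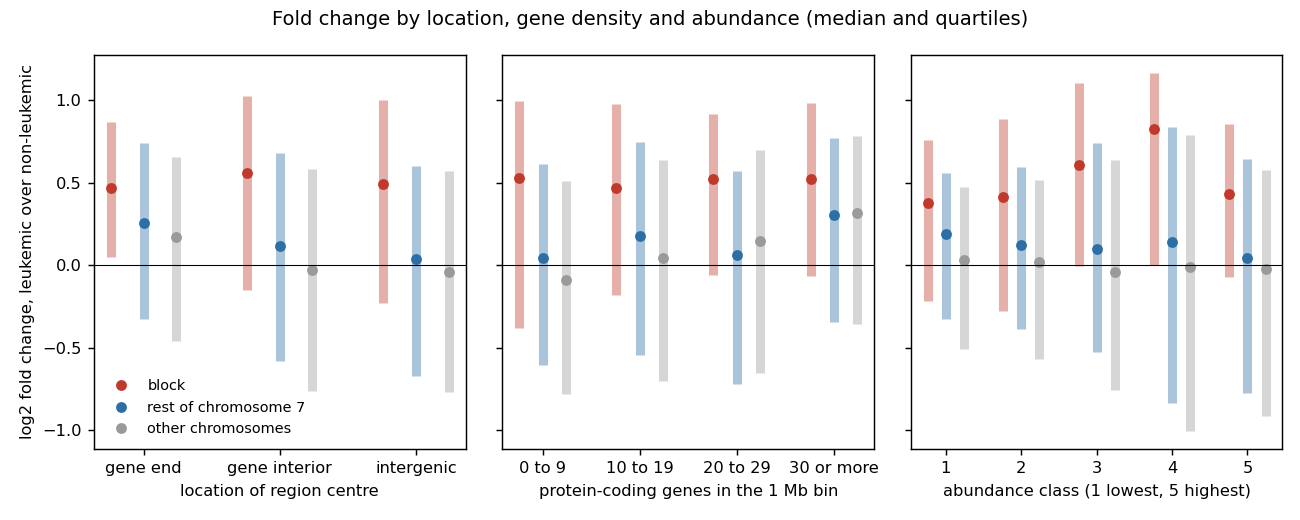
Median (point) and quartiles (bar) of the log2 fold change, leukemic over non-leukemic, by location, gene density class and abundance class, for the block, the rest of chromosome 7 and the other chromosomes. The block medians lie between 0.38 and 0.83 in every class shown, and those on the rest of chromosome 7 between 0.04 and 0.31.

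At the level of genes, 555 of the 912 coding genes were nearest to at least 1 region, and 719 genes of any kind were. At least 1 region rose at 44 genes and at least 1 fell at 12, with Gm34891 in both counts. Genes with several regions that rose included Numbl, with 3, and Dmkn, Gpi1, Myh14, Pepd and Zfp536, with 2 each. Those with several regions that fell were Siglece, with 4, and Siglecg and Sipa1l3, with 2 each.

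The highest single value was in Otog, which encodes otogelin, a matrix protein of the inner ear. Its intragenic region at chr7:46244149-46244413 reached 4.14 in the authors' deposited table, the highest log2 fold change of the block (adjusted p = 2.53e-05). A region at a gene end of the zinc finger gene Zfp773 followed, with 3.60 in the authors' deposited table (adjusted p = 9.81e-06). The values that followed lay at genes of mixed kinds, among them the zinc finger gene Zfp536, Dmkn and Pepd, described further on. Gpi1, the gene of the glycolytic enzyme glucose-6-phosphate isomerase, had regions at 3.20 and 1.94 in the authors' deposited table. Ethe1, which encodes a mitochondrial enzyme of sulfide breakdown, had 2.81 in the authors' deposited table. The intergenic region nearest to Acp7, an acid phosphatase gene, lay 14.8 kb from it and had 2.86 in the authors' deposited table. A region in the non-coding Gm19345 had 2.92 in the authors' deposited table.

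Myh14, a non-muscle myosin heavy chain gene, had high values along its length. Of its 11 regions, 10 had a value above 0, the median was 1.39, and 2 rose, with 2.47 and 2.02 in the authors' deposited table. The region over the Myh14 promoter printed above, which was assigned to the overlapping gene 2310016G11Rik, had 2.20 in the authors' deposited table (adjusted p = 3.97e-05).

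Numbl and Ltbp4 are neighbours whose regions were all above 0. Numbl encodes an adaptor protein known to restrain Notch signalling, and Ltbp4 a matrix protein that binds latent TGF-beta. The 15 regions at the 2 genes had a median of 1.18, and 3 rose. The 3 were assigned to Numbl and had 2.19, 1.81 and 1.70 in the authors' deposited table. The lowest adjusted p at Ltbp4 was 0.00151, where the authors' deposited table gave 1.56. Tgfb1, the gene of the cytokine itself, had a region near a gene end that rose, with 1.72 in the authors' deposited table (adjusted p = 4.39e-04).

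A run of Pepd and Cebpa regions was also among the higher stretches. Pepd, which encodes the dipeptidase prolidase, had 20 regions with a median of 0.67, and 2 of them rose, with 2.92 and 2.41 in the authors' deposited table. Within 100 kb of the start of Cebpa, 32 regions had a median of 0.88, 26 were above 0 and 3 rose. These include 6 of the Pepd regions, among them both that rose. The other 26 regions had a median of 0.85, with 21 above 0 and 1 that rose. The Cebpa promoter region itself had 0.87 in the authors' deposited table, with an adjusted p of 0.00371, so it did not pass the threshold. The region at chr7:35157466-35157933, whose centre lies 38.4 kb downstream of the Cebpa start within the non-coding gene Gm35889, rose with 1.91 in the authors' deposited table (adjusted p = 2.83e-04). Mouse Cebpa is known to have a distal enhancer downstream of the gene, and whether this region is that element was not tested. Cebpg, the neighbouring gene of a related factor, had a promoter region at 0.06 in the authors' deposited table. The 4 regions assigned to Cebpa and Cebpg had a median of 0.67, and 0 rose or fell.

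The Peg3 domain lies close to the centromeric edge. The promoter windows of Peg3 and Usp29 overlap on opposite strands, and 1 broad region of 3369 bp, chr7:6727273-6730642, covered both promoters. It rose, by 2.07 in the authors' deposited table (adjusted p = 2.50e-04). The neighbouring imprinted gene Zim1 had 2 regions in the authors' deposited table, 1 at 1.65 (adjusted p = 0.0233) and 1 at 2.12 (adjusted p = 0.00263). Regions within Usp29, which encodes a deubiquitinase-like protein, had 0.23, 0.79 and 1.40 in the authors' deposited table, so all 6 regions of the 3 genes were above 0 and 1 rose. Reads from the 2 parental copies are not told apart in these values.

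Dmkn, which encodes the skin protein dermokine, had 2.92 over its promoter and 2.29 just inside the gene in the authors' deposited table. At Zfp536, a zinc finger gene of neural tissue in a bin with 2 coding genes, 2 of 31 regions rose, with 2.99 and 1.69 in the authors' deposited table. Another zinc finger gene, Zfp568, had 1 region of 6 that rose, with 2.84 in the authors' deposited table.

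Of the 17 regions that fell, 8 lay in 1 stretch. Between 43 and 44 Mb, 90 regions had a median of -0.30, with 8 that fell and 0 that rose, against a median of 0.55 and 9 that fell among the 1950 regions of the block outside it. The stretch was picked after its values were seen. Inside it, from Siglecf to Siglece, 53 regions had a median of -0.78 and 17 of them were above 0. Siglece encodes an inhibitory sialic acid receptor of myeloid cells. Its 4 regions that fell had log2 fold changes of -3.28, -2.96, -2.54 and -2.39 in the authors' deposited table, the third of them over the promoter printed above. Siglecg, the gene of an inhibitory receptor of B cells, had -3.17 over its promoter and -2.35 upstream in the authors' deposited table. Intergenic regions nearest to Gm35588 and to the zinc finger gene Zfp658 had -2.58 and -2.49 in the authors' deposited table.

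The other regions that fell lay singly or in pairs. Lipe, which encodes hormone-sensitive lipase, held inside the gene the lowest value of the block, with -3.29 in the authors' deposited table (adjusted p = 6.96e-05). Hamp encodes hepcidin, the iron hormone of the liver, and an intergenic region 6.62 kb from it had -2.93 in the authors' deposited table. Smg9, a gene of nonsense-mediated RNA decay, and Kcnn4, a calcium-activated potassium channel gene of blood cells, had nearby regions at -2.85 and -2.03 in the authors' deposited table. Sipa1l3, which encodes a protein with a GTPase-activating domain, had -2.78 and -2.27 in the authors' deposited table. The region within Vasp, an actin regulator gene, had the smallest drop, with -1.32 in the authors' deposited table, and a high abundance of 4.10 on the log2 scale. A region next to Gm10640 had -2.13 in the authors' deposited table. At Gm34891, 1 region rose with 2.08 and 1 fell with -2.35 in the authors' deposited table.

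A low median was also found between 36 and 37 Mb, where 15 regions, 5 of them nearest to the transcription factor gene Tshz3, had a median of -0.80. None of them passed the authors' threshold, and the lowest value, at Tshz3, was -2.46 in the authors' deposited table (adjusted p = 0.00113).

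**Figure D3:**
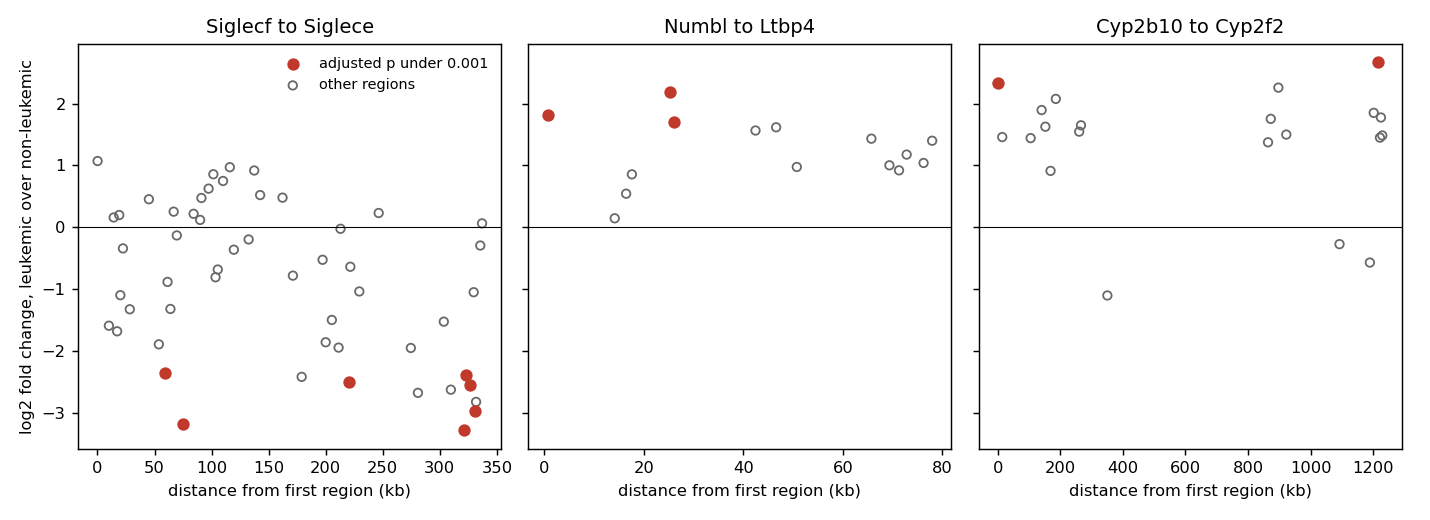
Log2 fold change (leukemic over non-leukemic) of each region from Siglecf to Siglece, Numbl to Ltbp4 and Cyp2b10 to Cyp2f2, by distance in kb from the first region. Filled points had an adjusted p under 0.001. Regions at Numbl and Ltbp4 (15 of 15) and from Cyp2b10 to Cyp2f2 (19 of 22) lie all or mostly above 0, and those from Siglecf to Siglece mostly below (17 of 53 above 0).

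Lists of genes were described by their regions, beside a median of 0.52 over the block and 0.02 over all regions. Their counts stand beside shares of 2.65% that rose and 0.833% that fell over the block, and 1.24% and 1.22% over all regions. The counts are small and were not tested. Among myeloid receptors and adaptors, 60 regions at 13 genes had a median of -0.36, and 6 fell, all at Siglece and Siglecg. Cd33, another Siglec, had a lowest adjusted p of 0.00129 at -1.94 in the authors' deposited table, and Ffar2, a receptor for short-chain fatty acids, had 0.00178 at -1.03. The 5 Siglec genes of the block had 34 regions, of which 10 were above 0, with a median of -0.96. Cd22, a Siglec of B cells that lies apart from the others, had its lowest adjusted p, 0.366, at 0.66 in the authors' deposited table. The 5 B-cell genes, Cd79a, Cd22, Cd37, Spib and Pou2f2, had 23 regions with a median of 0.32, and 0 rose or fell.

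All 18 regions at 6 apoptosis and survival genes had a value above 0, with a median of 0.91, though 0 passed the authors' threshold. Akt2, a survival kinase gene, and Bax, which encodes a pore-forming death effector, both had a value of 1.70 at their lowest adjusted p in the authors' deposited table (0.00123 and 0.00346). Bbc3, the gene of the death inducer Puma, had 1.42 in the authors' deposited table (adjusted p = 0.00501). All 15 regions at 7 ribosomal protein genes were above 0 as well, with a median of 0.35, below that of the block. Of the 15, 1 rose, an intergenic region near Rps16 with 2.15 in the authors' deposited table (adjusted p = 9.71e-05).

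The 15 genes of metabolism and iron had 71 regions with a median of 0.82, of which 7 (9.86%) rose and 1 (1.41%), that near Hamp, fell. Besides Gpi1 and Ethe1, Slc1a5, which encodes a glutamine transporter, had a region that rose, with 2.38 in the authors' deposited table (adjusted p = 1.35e-04). Around Apoe, which encodes a lipid carrier, 13 regions of the apolipoprotein cluster had a median of 0.95. One of them rose, next to Apoc4, with 1.79 in the authors' deposited table (adjusted p = 6.66e-04). Cytokine and growth factor genes had 19 regions with a median of 0.99, of which 1 rose, that of Tgfb1. Flt3l, the gene of the ligand of the progenitor receptor Flt3, went the other way, with -2.26 in the authors' deposited table (adjusted p = 0.0011).

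Chromatin and transcription regulators had 116 regions with a median of 0.47, of which 5 (4.31%) rose. Ruvbl2, an ATPase gene of chromatin remodelling complexes, had 2.45 in the authors' deposited table (adjusted p = 3.12e-05). Hnrnpl, a splicing factor gene, had 2.23 at a gene end in the authors' deposited table (adjusted p = 1.92e-04). The region nearest to Uri1, the gene of a prefoldin-like protein, lay 28.0 kb away and had 2.72 in the authors' deposited table. DNA replication and repair genes had 26 regions with a median of 0.45, and 0 rose or fell. Pold1, the catalytic subunit gene of DNA polymerase delta, had -1.93 in the authors' deposited table (adjusted p = 0.00324).

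Signalling lists were closer to 0. The NF-kB and interferon list had 18 regions at 8 genes with a median of 0.10, and 0 rose or fell. Bcl3 and Nfkbid, both genes of inhibitor-like NF-kB regulators, had 1.77 and -1.06 in the authors' deposited table at their lowest adjusted p (0.011 and 0.0313). Immediate early genes, which respond within minutes to stimulation, had 15 regions with a median of 0.02, and Fosb, an AP-1 subunit gene, had 1.32 in the authors' deposited table (adjusted p = 0.00266).

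The tandem families differed in how many of their genes had a region at all. Zinc finger genes numbered 88 in the block out of 105 on chromosome 7, and 81 of the 88 were nearest to a region. Their 196 regions had a median of 0.42, against 0.54 for the other regions of the block. Zinc finger regions had medians of 0.16 on the rest of chromosome 7 and 0.14 on other chromosomes. Of the 196, 5 rose, at Zfp773, Zfp536, Zfp568 and Peg3, and 1 fell, near Zfp658. The share that rose, 2.55%, was near the 2.65% of the whole block. The 13 Cyp2 genes, which encode enzymes that oxidise steroids and foreign compounds, had 19 regions at 7 genes with a median of 1.46. Of these 2 rose, at Cyp2b10 with 2.32 and near Cyp2f2 with 2.67 in the authors' deposited table. From Cyp2b10 to Cyp2f2, genes of other families included, 22 regions had a median of 1.59 and 19 were above 0.

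Psg and Ceacam genes, a family of pregnancy and adhesion glycoproteins, had 25 regions at 12 of 28 genes, with a median of 0.61 and 0 called. Kallikrein genes, which lie next to the Siglec genes, had 19 regions at 11 of 26 genes with a median of -0.21, and 6 of the 19 were above 0. Of the 9 sulfotransferase genes of the Sult2 family, only Sult2b1 was nearest to a region.

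**Figure D4:**
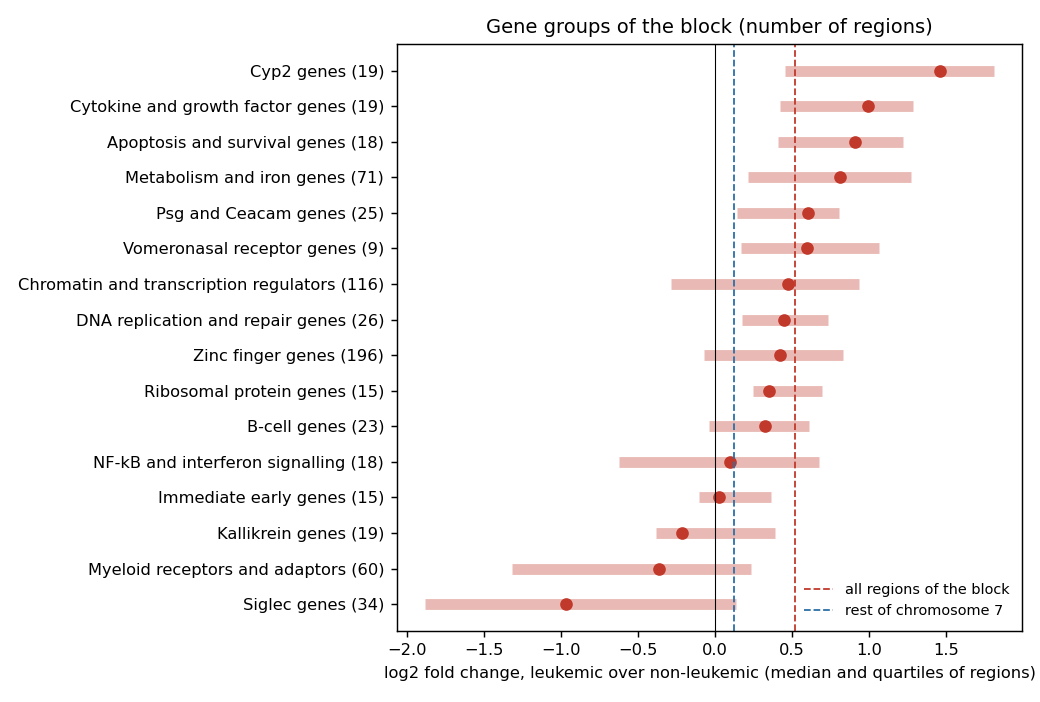
Median (point) and quartiles (bar) of the log2 fold change, leukemic over non-leukemic, of regions in each gene list and family with at least 9 regions. Dashed lines mark the medians of the block and of the rest of chromosome 7. The Cyp2 genes have the highest median (1.46) and the Siglec genes the lowest (-0.96), against 0.52 for the block.

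Vomeronasal receptor genes were almost free of regions. Of 161 such genes in the block, 7 were nearest to a region, with 9 regions in all. A region overlapped 1 of 151 vomeronasal promoter windows in the block. On the rest of chromosome 7 it was 0 of 13 and on other chromosomes 1 of 160, so this is not particular to the block. Between 20 and 24 Mb, 103 coding genes, 85 of them vomeronasal, shared 2 regions. The longest gap between neighbouring regions of the block spanned 3.81 Mb and lay almost wholly in that stretch. Promoter windows of some of these receptor genes are identical to each other, and how reads that match several copies were handled was not examined. Whether the lack of regions reflects closed chromatin was not tested.

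Promoters as a class shared the higher values. Of 1158 promoter windows of 974 block genes, 498 overlapped a region, against 825 of 1632 on the rest of chromosome 7. Regions over promoters numbered 387 of 2040 in the block, against 624 of 7048 on the rest of the chromosome. Their median was 0.45, against 0.28 over promoters on the rest of chromosome 7 and 0.17 elsewhere, and 4 rose and 2 fell. Block promoters of few, intermediate and many CG dinucleotides had like medians. These were 0.44 for 0 to 4 per window, 0.45 for 5 to 14 and 0.45 for 15 or more, over 37, 121 and 229 regions. Their shares above 0 were not alike, at 62.2%, 78.5% and 83.0%. Both promoter regions that fell were in the CG-poor class, that of 0 to 4. Outside the block the CG-poor class was the low one, with -0.17 on the rest of chromosome 7 and -0.30 on other chromosomes, against 0.29 and 0.22 in the CG-rich class. The Siglecg and Siglece windows printed above belong to the CG-poor class, and those of Myh14 and Usp29, with 18 and 17, to the CG-rich one.

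The letters GAGGAAGT, searched on both strands, were found in 104 block windows (8.98%), in 3.37% of windows on the rest of chromosome 7 and in 3.22% of all promoter windows. Of the 104, 74 were vomeronasal receptor windows. Among the other 1007 block windows the share was 2.98%, and outside the block it was 3.01% of such windows. Within the Vmn1r genes, 72 of 115 windows (62.6%) held it, against 2.20% of Vmn1r windows on other chromosomes. In all 72 it began at base 34 counted from the annotated start, that base included, as in the Vmn1r90 window above. In all 72 the annotated start is an ATG, so these letters lie in what is annotated as coding sequence. None of the 115 windows overlapped a region. Paired with each other position by position and without gaps, the 72 windows were identical at a median of 48.3% of positions (range 32.7% to 100%). An inserted or missing base shifts all positions on one side of it, so these values understate how alike the windows are. Many are close copies, so the 72 matches are not independent. The same letters were in 2.61% of block windows with a region, and in 0 of 5 windows whose region rose and 0 of 3 whose region fell. A match of letters is a description and not evidence of binding.

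Of 4 further sets of letters searched on both strands, the ETS letters CCGGAAGT were in 4.15% of block windows and 3.91% of all windows. They were in 8.23% of the block windows with a region, and no such share is given outside the block. These letters hold a CG, and block windows had a median of 17 CG dinucleotides with a region and 3 without. A link with CG content was not tested. The AP-1 letters TGACTCA were in 6.04% and 5.22%, and the CCAAT box letters, bound by NF-Y, in 43.8% and 37.6%. In block windows with a region these shares were 2.41% for AP-1 and 41.6% for CCAAT. Vomeronasal receptor windows were not set apart for these letters. Many of the Vmn1r windows that hold GAGGAAGT, Vmn1r90 among them, also hold ATTGG, which is CCAAT on the other strand. How much of the higher CCAAT share of the block lies in these near copies was not tested. The CEBP letters TTGCGCAA were in 1 block window, or 0.0864%, and in 0.184% of all windows.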

How the data were processed

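ATAC-seq was made on 8 mouse libraries, and the values used come from the comparison between leukemic and non-leukemic cells that the authors deposited. Per the submitters' processing notes, builds GRCm38 and mm10 were used, with Bowtie2 2.4.1, SAMtools 1.10.2 and Genrich 0.6. The table's title names csaw, which tests accessibility in windows. For its settings, the normalization and any shift of reads for the transposase, nothing is stated in the labels. The deposited values are a log2 fold change, a log2 average abundance (read from the column's place and range), and a p-value with its adjusted p-value per region. The adjusted p-value of 0.001 picked out the authors' deposited sets of 2002 more and 1961 less accessible regions exactly, and 0.9 their 19123 unchanged ones, of which 157 lie in the block. Coordinates are printed as deposited, and the labels do not state whether starts count from 0.

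Python 3.11.15 with pandas 2.3.3, numpy 2.4.6, scipy 1.17.1 and matplotlib 3.10.9 was used. Each region centre was given to the nearest gene extent within 100 kb in a RefSeq table of GRCm38.p6, which assigned all 2040. Gene density counted coding genes with a midpoint in 1 Mb bins. Promoter windows run from 250 bases before to 50 after each RefSeq start. Named genes were those with 2 or more called regions, the 10 highest and 10 lowest called values, and 2 to 4 members of each list with the lowest adjusted p. Further genes in the described stretches were chosen after their values were seen. Some genes that meet the rule are not reported here. Members and lists were chosen with earlier results of these data known, and no test was made. The calculations were checked on simulated data.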

Additional observations from a re-analysis of the deposited data

How the results depend on the processing

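No paired analysis was possible because the deposited comparison holds no values per library, and leaving out a replicate in turn was not possible for the same reason. Of 91 alternatives, 73 kept the result within its bounds (for medians and shares a 95% interval that takes regions as independent, for counts a factor of 1.5), 16 moved it and 2 turned its sign. Leaving out each of 10 stretches of 5 Mb gave block medians from 0.49 to 0.54, shares above 0 from 71.4% to 73.9%, and counts of 37 to 54 that rose and 9 to 17 that fell. As the block was delimited by these fold changes, a high median in what remains follows in large part from the choice. The lowest count that fell, 9, came without 40 to 45 Mb, and 9 fell without 43 to 44 Mb, an alternative chosen after seeing the data. Counts that rose were 446 at an adjusted p under 0.05 and 18 under 0.0001, and those that fell were 103 and 2. With gene ends taken within 3 kb, the block median there was 0.54, and inside genes on the rest of chromosome 7 it was 0.066. With all annotated genes counted, the density classes of 0 to 9 stood at -0.47 in the block, over 3 regions, and -0.12 on the rest of the chromosome, those of 10 to 19 at 0.37 and 0.088, and that of 30 or more on the rest at 0.23. Bins of 2 Mb gave 0.21 for 20 to 29 genes on the rest. With all other chromosomes in place of the rest of chromosome 7, the median log2 fold change was 0.0025, with 8.08 coding genes and 62.7 regions per Mb and a median log2 abundance of -1.18. The cause was not tested for the rest. Depth per library is unknown, so no interval over mice could be set.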
